A study of Saccharomyces cerevisiae with 27 samples.

Results

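The mutants H4-T30D and H4-T30A carry different amino acids at the same residue of histone H4, and their transcriptomes were compared in yeast cells that had not been stressed. The members of the comparison were chosen by their labels: 3 libraries titled as the H4-T30D mutant without stress and 3 titled as the H4-T30A mutant without stress, 6 of the 27 libraries of the series. Each library was a poly(A)-selected RNA-seq library of whole cells, and the table gives a read count for each of 6746 genes. The other 21 libraries (the same mutants and WT after 10 min at 39 ºC, H4-S47D with and without NaCl, and WT with NaCl and without stress) entered the fit to estimate the spread between replicates.

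All 6 libraries came from Saccharomyces cerevisiae of the BY4741 type, mating type MATa, in log phase at 30 ºC in the rich medium YPD. In H4-T30D cells the only histone H4 gene was a synthetic cassette, HHTS-HHFS(T30D), at hht2-hhf2. In H4-T30A cells it was HHTS-HHFS(T30A) and in WT cells HHTS-HHFS(WT), each linked to URA3. The strains shared the replacement hht1-hhf1::NatMX4, so that H3 and H4 came from the cassette alone, and the auxotrophic alleles his3Δ200, trp1Δ63 and met15Δ0 as well as leu2Δ0, lys2Δ0 and ura3Δ0. They also carried can1::MFA1pr-HIS3, a marker in which the promoter of the a-factor gene MFA1 drives HIS3. The labels give 1 genotype for each group and do not state how many independent clones stood behind it.

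Histone H4 is a core subunit of the nucleosome, the particle of DNA and histone protein that packs the genome and that a polymerase must pass. Threonine 30 can take a phosphate group. Alanine lacks the hydroxyl that carries it, so H4-T30A cannot be phosphorylated there, and aspartate bears a negative charge, so H4-T30D is used to mimic the phosphorylated residue. The comparison asks how the transcriptome of unstressed cells differs between the charged and the uncharged substitution, a contrast in which both groups are mutant.

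The H4-T30D libraries held 13608776 to 19503694 counts and the H4-T30A libraries 12806359 to 16927556. Replicates differed from one another by more than sampling noise (chi-square per degree of freedom 3.68 to 6.88), so none was a library deposited more than once. The first principal component of the 6 libraries, 61.4% of the variance, placed the H4-T30D libraries between 14.27 and 15.15 and the H4-T30A libraries between -15.95 and -13.97. One H4-T30D library, replicate 2, stood apart in a small way: it held 32 reads of MET17, the gene deleted as met15Δ0, where the other 5 libraries held 0, and 4 reads of LYS2 and 3 of LEU2, where the others held 0 or 1. Counts of calls are therefore also given without it. Values below are CPM, counts per 1000000 of the scaled library size, and differences are log2 fold changes of H4-T30D over H4-T30A with their standard error (SE) from the edgeR quasi-likelihood fit.

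Of 6209 genes tested, 1393 (22.4%) differed between H4-T30D and H4-T30A at an adjusted p under 0.05. In H4-T30D cells 803 genes (12.9%) were higher and 590 (9.5%) were lower. The changes were small for most genes: the median log2 fold change was 0.485 among the higher genes and -0.361 among the lower. Past 2-fold the balance was uneven, with 139 genes higher (2.24%) and 4 lower (0.0644%). The 2 groups of libraries did not overlap in CPM for 3111 genes (50.1%), and for 792 of the 803 higher and 587 of the 590 lower genes. The split between higher and lower depended on the scaling: 803 and 590 with TMM factors, 678 and 758 with the RLE size factors used in the study, and 1073 and 273 with library totals alone, which moved the median log2 fold change over all genes to 0.087. Without H4-T30D replicate 2 the counts were 666 and 414. In the fit restricted to the 6 libraries they were 1321 and 1240.

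**Figure D1:**
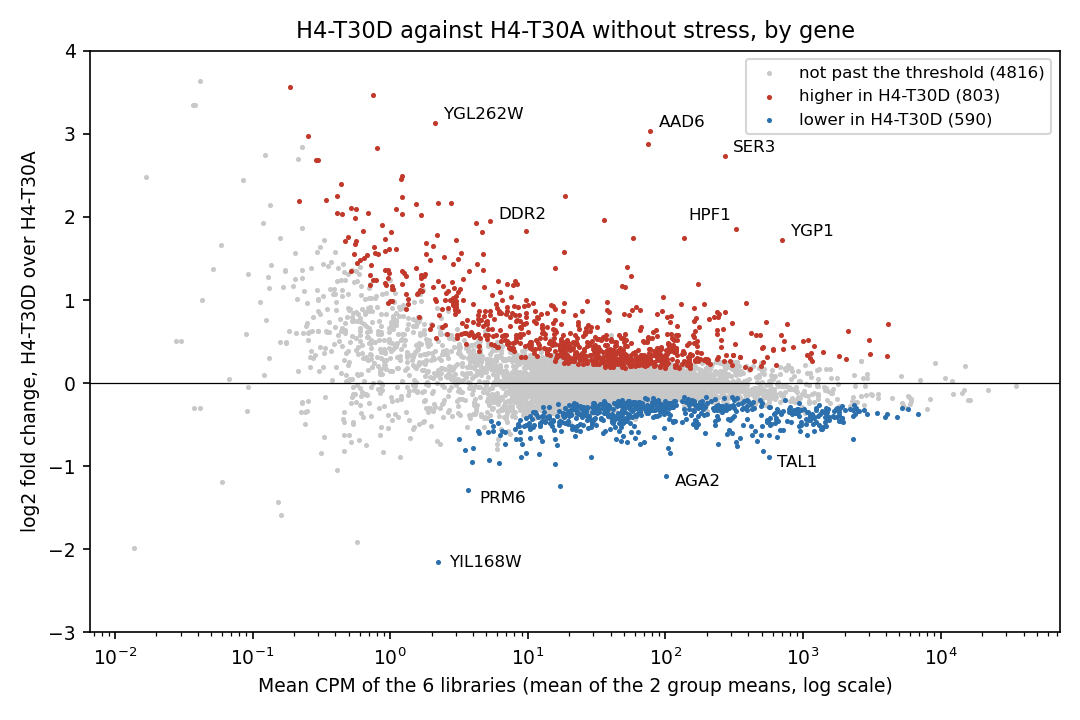
Log2 fold change of H4-T30D over H4-T30A without stress (y) against the mean CPM of the 6 libraries (x, log scale), 1 point per tested gene, coloured by direction where the adjusted p was under 0.05. The 803 higher and 590 lower genes spread over all levels, while most changes past 2-fold in H4-T30D lie at low CPM. 4 genes lie outside the y axis.

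The large increases were found mostly among weakly transcribed genes. When tested genes were split into quintiles by mean count, 120 of the 139 genes higher past 2-fold fell in the lowest quintile (mean count up to 150.7), where 240 genes were higher and 32 lower and the median log2 fold change was 0.300. In the top quintile 142 were higher and 241 lower, with a median of -0.058. Of the 139 genes, 33 had no position in the reference annotation, 29 lay within 20 kb of a chromosome end and 77 lay further in. In the lowest quintile these were 32 of 349 tested genes without a position, 24 of 112 within 20 kb and 64 of 781 further in. In the other quintiles they were 1 of 24, 5 of 123 and 13 of 4820.

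The named genes with the largest changes were the 10 highest and 10 lowest by log2 fold change among genes that passed the test, did not overlap between the groups and had a mean count of at least 10. Among the increases was SER3 (YER081W, chromosome V, 322686 to 324095, + strand), whose product is a 3-phosphoglycerate dehydrogenase, the enzyme of the first step of serine synthesis. SER3 gave 468, 478 and 463 CPM in H4-T30D cells, against 70.5, 73.0 and 68.9 CPM in H4-T30A cells. The log2 fold change was 2.73 ± 0.08 (SE, adjusted p = 1.64e-20). In WT cells it gave 129, 109 and 132 CPM. SER3 is known for repression by transcription of the upstream noncoding RNA SRG1 across its promoter, a process that keeps nucleosomes over that promoter in serine-rich medium. SRG1 (chromosome V, 322212 to 322762), chosen after its values were seen, gave 11.7, 12.7 and 9.54 CPM in H4-T30D cells, against 9.56, 9.66 and 9.65 CPM in H4-T30A cells, with a log2 fold change of 0.22 ± 0.14 (adjusted p = 0.266). The 2 genes overlap by 77 bases on the same strand. Its paralog SER33, which encodes the same enzyme activity, had a log2 fold change of -0.08 ± 0.07 (adjusted p = 0.478).

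AAD6, a member of the family of putative aryl-alcohol dehydrogenases, rose further. RefSeq annotates it as a pseudogene (chromosome VI, 14305 to 15431, - strand). It gave 134, 145 and 136 CPM in H4-T30D cells, against 18.0, 15.3 and 17.3 CPM in H4-T30A cells (log2 fold change 3.03 ± 0.10, adjusted p = 5.06e-20). YFL057C, which RefSeq lists as a synonym of AAD6, gave 135, 137 and 124 CPM in H4-T30D cells, against 18.3, 15.7 and 19.6 CPM in H4-T30A cells. WT libraries gave 14.0, 16.4 and 18.3 CPM for AAD6, close to the H4-T30A level. AAD15 (log2 fold change 1.83 ± 0.16) and AAD4 (1.29 ± 0.08) rose too. Members of this family are near copies of each other, and reads that mapped to more than 1 place were not counted, so the level of each member is uncertain.

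YGL262W and COS12, separated by 1379 bases near the left end of chromosome VII, both rose. YGL262W (VII, 5312 to 5839, + strand), whose protein is uncharacterized, gave 3.91, 3.79 and 3.78 CPM in H4-T30D cells, against 0.601, 0.333 and 0.306 CPM in H4-T30A cells (log2 fold change 3.13 ± 0.33). COS12 (VII, 2790 to 3932), of the subtelomeric COS family, gave 29.5, 31.2 and 31.7 CPM in H4-T30D cells, against 8.42, 5.58 and 5.06 CPM in H4-T30A cells (log2 fold change 2.25 ± 0.18). VBA5, a gene of the family of basic amino acid transporters, gave 1.85, 2.00 and 2.33 CPM in H4-T30D cells, against 0.301, 0.417 and 0.383 CPM in H4-T30A cells. The remaining genes among the 10 largest increases, YPR092W (3.47 ± 0.55), YDR010C (2.83 ± 0.53), YCL074W (2.46 ± 0.39) and YMR057C (2.24 ± 0.47), had at most 2.69 CPM in any H4-T30D library, and little is annotated for them. YFR057W, chosen after its values were seen, had 16, 10 and 12 reads in H4-T30D libraries and 0 in every H4-T30A library and every WT library. Set against a floor of 3 counts over the 3 H4-T30A libraries, it was at least 9.86-fold higher in H4-T30D. It lies 645 bases from the end of chromosome VI.

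Among other strongly changed genes, picked after their values were seen, wall and membrane protein genes were found. HPF1, a mannoprotein gene, gave 544, 517 and 467 CPM in H4-T30D cells, against 143, 145 and 134 CPM in H4-T30A cells (log2 fold change 1.86 ± 0.12). CSS1 gave 60.8, 58.5 and 52.8 CPM in H4-T30D cells, against 16.4, 14.0 and 13.6 CPM in H4-T30A cells (log2 fold change 1.96 ± 0.13). NCA3, of the SUN family of wall proteins, gave 87.9, 94.7 and 88.0 CPM in H4-T30D cells, against 26.2, 26.6 and 27.6 CPM in H4-T30A cells (log2 fold change 1.75 ± 0.11). YRO2, which encodes a plasma membrane protein related to Hsp30, gave 216, 201 and 215 CPM in H4-T30D cells, against 64.6, 58.1 and 65.4 CPM in H4-T30A cells (log2 fold change 1.75 ± 0.09). For all 4 the lowest H4-T30D library was above the highest of the H4-T30A libraries. The groups did not overlap for 792 of the 803 higher genes and for 50.1% of all tested genes.

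The decreases were smaller. TAL1, which encodes transaldolase of the pentose phosphate pathway, was the most highly expressed of the 10 genes with the largest decrease and gave 406, 401 and 388 CPM in H4-T30D cells, against 745, 774 and 685 CPM in H4-T30A cells (log2 fold change -0.88 ± 0.08, adjusted p = 1.97e-09). WT cells gave 627, 649 and 671 CPM, so that H4-T30D libraries were below both other groups. YIL168W had the largest decrease, at 0.475, 1.07 and 0.92 CPM in H4-T30D cells, against 3.55, 3.58 and 3.75 CPM in H4-T30A cells (log2 fold change -2.16 ± 0.30). AMD2, a putative amidase gene, gave 6.07, 5.72 and 7.02 CPM in H4-T30D cells, against 11.7, 11.2 and 12.3 CPM in H4-T30A cells (log2 fold change -0.89 ± 0.12). CGR1 (-0.97 ± 0.20), which acts in ribosomal RNA processing, UBA3 (-0.96 ± 0.19), which encodes a subunit of the enzyme that activates the ubiquitin-like Rub1, CTR3 (-0.94 ± 0.20), a copper transporter gene, and SEN15 (-0.92 ± 0.17), a subunit of the tRNA splicing endonuclease, completed the list beside the mating genes PRM6, ASG7 and AGA2.

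**Figure D2:**
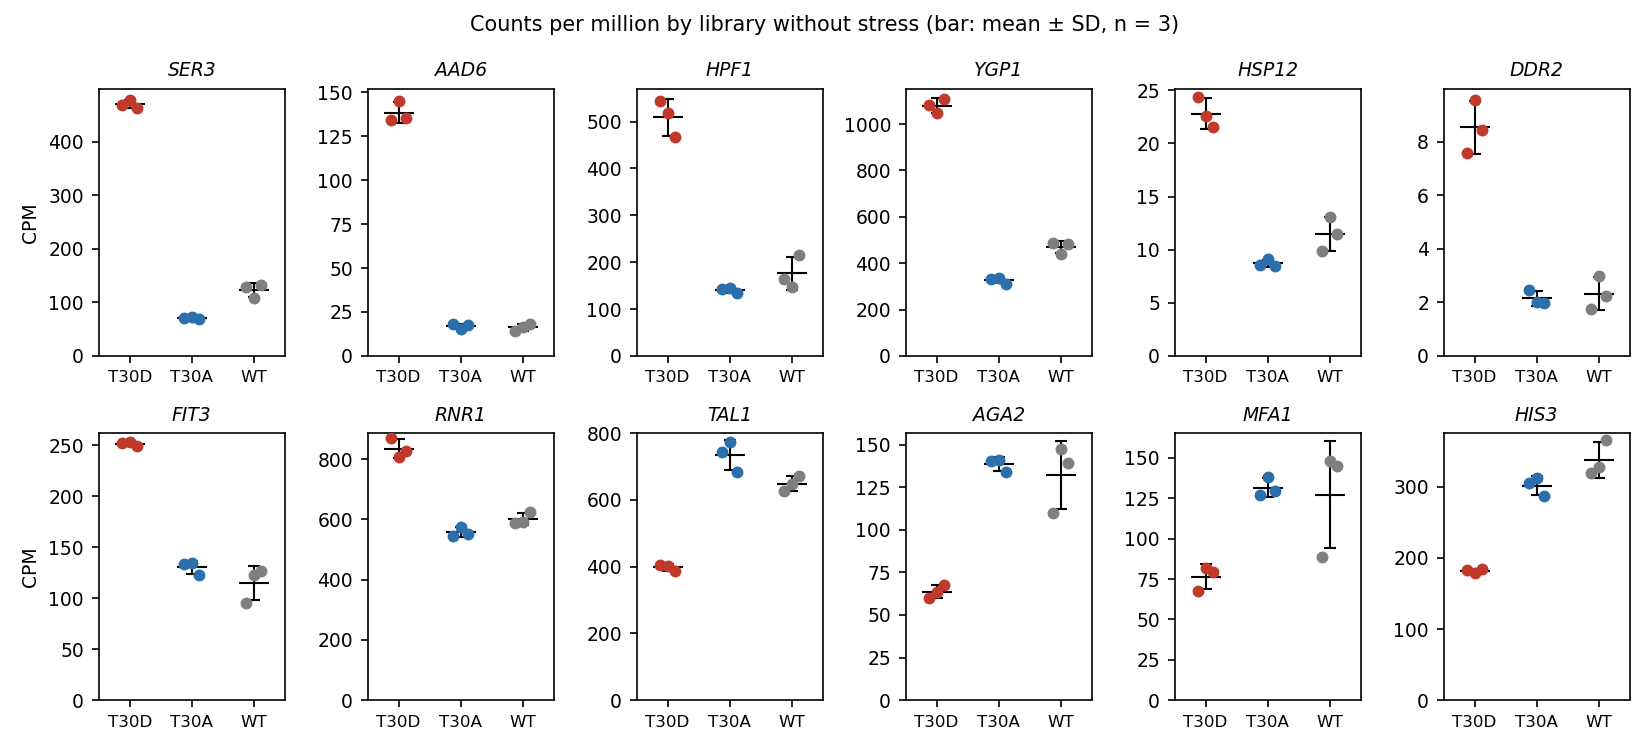
CPM (y, linear axes from 0) of 12 genes in the 3 H4-T30D, 3 H4-T30A and 3 WT libraries without stress. Points are libraries and bars are the mean ± SD (n = 3); the H4-T30D points are separate from the H4-T30A points in every panel, above them in the first 8 and below them in TAL1, AGA2, MFA1 and HIS3.

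General stress genes were higher in H4-T30D cells. This programme is a set of genes that the zinc finger factors Msn2 and Msn4 switch on under many stresses, and unstressed log-phase cells keep it low. Of 32 listed genes, 21 rose and 0 fell, where 12.9% of all tested genes rose and 9.5% fell. Of the 21, 5 rose past 2-fold, and 2.24% of all tested genes did. The list's median log2 fold change was 0.438 against 0.003 over all tested genes. The summed level of the list was 3417, 3341 and 3329.9 CPM in H4-T30D libraries, against 2063, 2207 and 2029.8 CPM in H4-T30A libraries. In RNA from whole cultures, more cells expressing a gene and more RNA per cell cannot be told apart. The median was 0.408 with RLE factors and 0.525 with library totals.

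DDR2, a small stress-induced gene, had the largest change of the list and gave 7.60, 9.58 and 8.43 CPM in H4-T30D cells, against 2.46, 2.00 and 1.99 CPM in H4-T30A cells (log2 fold change 1.96 ± 0.18, adjusted p = 1.97e-09). YGP1, which encodes a secreted glycoprotein made on nutrient limitation, gave 1081, 1047 and 1110.1 CPM in H4-T30D cells, against 333, 338 and 312 CPM in H4-T30A cells (log2 fold change 1.72 ± 0.09). HSP12, which encodes a small membrane-associated heat shock protein, gave 24.3, 22.6 and 21.5 CPM in H4-T30D cells, against 8.60, 9.08 and 8.50 CPM in H4-T30A cells (log2 fold change 1.39 ± 0.11). HSP26, a small chaperone gene, gave 83.2, 77.6 and 68.9 CPM in H4-T30D cells, against 29.3, 29.0 and 29.0 CPM in H4-T30A cells (log2 fold change 1.39 ± 0.10). The H4-T30D and H4-T30A libraries did not overlap for any of these 4 genes. The same held for 792 of the 803 higher genes and for 50.1% of all tested genes. WT libraries gave 488, 441 and 482 CPM for YGP1 and 9.92, 13.1 and 11.5 CPM for HSP12, between the mutants in both cases.

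Other genes of this programme did not pass the test. ALD3, an aldehyde dehydrogenase gene, gave 22.4, 24.2 and 19.5 CPM in H4-T30D cells, against 17.4, 19.2 and 19.2 CPM in H4-T30A cells (log2 fold change 0.24 ± 0.10, adjusted p = 0.0664), and its closest libraries were 19.5 CPM in H4-T30D and 19.2 CPM in H4-T30A. CTT1, which encodes the cytosolic catalase T, gave 31.1, 25.7 and 28.9 CPM in H4-T30D cells, against 25.7, 28.6 and 25.1 CPM in H4-T30A cells (log2 fold change 0.12 ± 0.10, adjusted p = 0.436). HXT5, a hexose transporter gene, gave 38.6, 34.0 and 32.4 CPM in H4-T30D cells, against 34.5, 33.7 and 31.7 CPM in H4-T30A cells (log2 fold change 0.07 ± 0.09, adjusted p = 0.626). The groups overlapped for CTT1 and HXT5. ALD3 passed the threshold in the fit of the 6 libraries alone (0.25, adjusted p = 0.0282), in that fit with a replicate block (0.25, adjusted p = 0.02), with library totals (0.33, adjusted p = 0.00237) and without H4-T30D replicate 3 (0.33, adjusted p = 0.0259), and its adjusted p over the alternatives ran from 0.00237 to 0.246. STL1, a glycerol transporter gene that responds to osmotic stress, is not in this list, and the study gives Hot1 and Sko1 as its regulators. It was low, at 1.74, 2.14 and 2.08 CPM in H4-T30D cells, against 1.14, 0.833 and 0.996 CPM in H4-T30A cells (log2 fold change 0.97 ± 1.33, adjusted p = 0.634). The groups did not overlap for STL1, and its spread was estimated over all 27 libraries, the NaCl groups among them.

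The stress response element AGGGG, the site of Msn2 and Msn4, was searched on both strands in a window from 250 bases before to 50 bases after each annotated gene start, read from the R64 genome of RefSeq. It was present in 61.9% of the windows of the 21 higher stress genes and in 21.8% of the 5801 windows of all tested genes. Since the list was drawn up from known targets of these factors, that share describes the list. Of the 744 windows of all higher genes 28.2% held the element, and of the 101 windows of genes higher past 2-fold 12.9% did. The windows of DDR2 and HSP12 are shown because, of the 4 stress genes described above, these are the ones that hold the element, with it or its reverse complement CCCCT in capitals. In DDR2 (chrXV:231706-232005, - strand) it begins at -248, -203 and -175 from the start, and in HSP12 (chrVI:107006-107305, + strand) at -232 and -190. The windows of HSP26 and YGP1 held none.
DDR2: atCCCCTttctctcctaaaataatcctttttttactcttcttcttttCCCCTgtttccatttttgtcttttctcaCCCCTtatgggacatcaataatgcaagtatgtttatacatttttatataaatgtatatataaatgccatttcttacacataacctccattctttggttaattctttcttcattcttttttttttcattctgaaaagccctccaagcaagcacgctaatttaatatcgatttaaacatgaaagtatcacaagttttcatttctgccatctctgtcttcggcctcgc
HSP12: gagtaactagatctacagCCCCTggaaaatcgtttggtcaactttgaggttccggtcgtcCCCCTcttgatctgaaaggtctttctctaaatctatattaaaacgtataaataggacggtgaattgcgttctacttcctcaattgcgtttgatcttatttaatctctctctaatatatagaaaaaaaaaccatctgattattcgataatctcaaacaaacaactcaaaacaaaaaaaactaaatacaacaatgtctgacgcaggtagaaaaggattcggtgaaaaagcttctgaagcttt

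The chaperone genes, which depend largely on heat shock factor Hsf1, moved less uniformly. Of 25 listed genes, 7 rose and 2 fell, where 12.9% of all tested genes rose and 9.5% fell. The median was -0.070, which was 0.016 with library totals. HSP26 and HSP42, which rose, are in the general stress list too and were counted in both. HSP82, which encodes the inducible Hsp90, gave 309, 309 and 301 CPM in H4-T30D cells, against 171, 166 and 170.1 CPM in H4-T30A cells (log2 fold change 0.86 ± 0.07, adjusted p = 5.52e-10). HSP42 (0.84 ± 0.11), SSA4 (0.68 ± 0.14), a stress-inducible Hsp70 gene, and HSP104 (0.43 ± 0.08), the disaggregase gene, rose as well. HSP10 (-0.39 ± 0.10), the mitochondrial co-chaperonin gene, and MBF1 (-0.42 ± 0.11), a coactivator gene, fell.

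**Figure D3:**
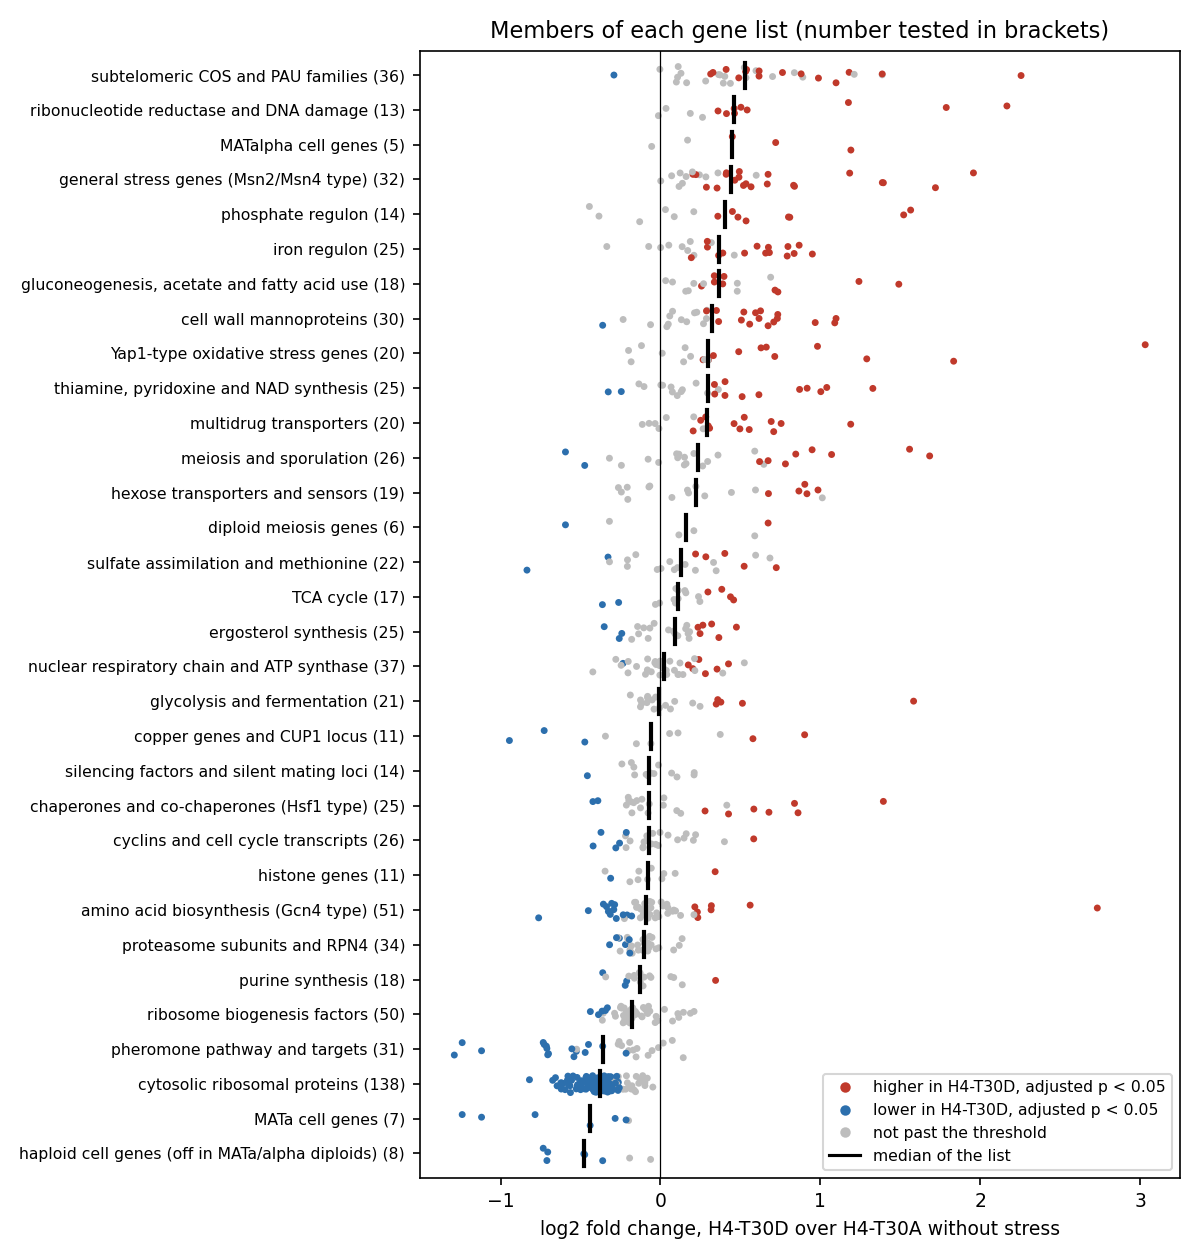
Log2 fold change of H4-T30D over H4-T30A without stress (x) for each tested member of 32 gene lists (y, ordered by median), with called genes in colour and the list median as a black bar. The general stress list has a median of 0.438 with 21 called members to the right of 0, and the ribosomal proteins have a median of -0.379 with 115 called members to the left.

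Cytosolic ribosomal protein genes were lower in H4-T30D cells almost as a block. These genes are transcribed together at high rates in growing cells. Of 138 listed genes, 115 fell, 0 rose and 23 did not pass the test, against 9.5% of all tested genes that fell. The list was drawn by gene name, and 1 of the 23, RPP1 (-0.10 ± 0.12, adjusted p = 0.596), encodes a subunit of RNase P and not a ribosomal protein. The log2 fold changes ran from -0.82 to -0.05 with a median of -0.379, so the differences were of modest size but negative in every member with TMM factors. Their summed level was 188159, 188956 and 182986 CPM in H4-T30D libraries, against 232697, 253904 and 228473 CPM in H4-T30A libraries, with no overlap. The number that fell was 118 with RLE factors, 106 with library totals and 103 without H4-T30D replicate 2.

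RPS30A, which encodes a protein of the small subunit, had the largest decrease of the list and gave 344, 386 and 374 CPM in H4-T30D cells, against 618, 698 and 631 CPM in H4-T30A cells (log2 fold change -0.82 ± 0.10). RPS20 gave 1813, 1791 and 1689.6 CPM in H4-T30D cells, against 2742, 2885 and 2820.3 CPM in H4-T30A cells (log2 fold change -0.67 ± 0.12). Many yeast ribosomal proteins are made from a pair of near-identical genes, and reads shared by a pair were not counted, so single members are less certain than the list. Ribosome biogenesis factors, a set regulated in parallel with ribosomal proteins, had 5 of 50 genes lower and 0 higher, a share near the 9.5% of all tested genes that fell. Their median was -0.176, and 0 fell with library totals. IMP3, which encodes a small-subunit processing factor, gave 23.0, 24.4 and 25.3 CPM in H4-T30D cells, against 32.6, 33.5 and 32.6 CPM in H4-T30A cells (log2 fold change -0.44 ± 0.13, adjusted p = 0.0171). CUP1-1, IMP3 and ENO1 are the named called genes that lost their call when some of the libraries were left out.

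Mating genes were lower in H4-T30D cells. In a MATa haploid the pheromone pathway runs from the receptor Ste2 through a G protein and a kinase cascade to the factor Ste12, which drives mating genes at a basal level even without pheromone. Of 31 pathway genes and targets, 16 fell and 0 rose, where 9.5% of all tested genes fell and 12.9% rose. The median was -0.361, and 3 fell past 2-fold, against 0.0644% of all tested genes. AGA2, which encodes the binding subunit of a-agglutinin on the surface of MATa cells, gave 60.2, 63.6 and 67.3 CPM in H4-T30D cells, against 140.3, 141 and 134 CPM in H4-T30A cells (log2 fold change -1.12 ± 0.10, adjusted p = 1.02e-09). ASG7, an a-specific gene, gave 10.8, 10.4 and 9.69 CPM in H4-T30D cells, against 25.2, 25.3 and 22.1 CPM in H4-T30A cells (log2 fold change -1.24 ± 0.13). PRM6, which encodes a pheromone-regulated potassium transporter, gave 2.48, 2.22 and 1.74 CPM in H4-T30D cells, against 4.75, 5.33 and 5.67 CPM in H4-T30A cells (log2 fold change -1.29 ± 0.26). H4-T30D libraries were lower than all H4-T30A libraries for each, which the choice of the 10 largest decreases required. The WT libraries gave 109.9, 147 and 139 CPM for AGA2.

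Within the pathway the decrease was uneven. FUS3, which encodes the terminal kinase, gave 54.1, 53.8 and 50.5 CPM in H4-T30D cells, against 82.8, 90.0 and 86.6 CPM in H4-T30A cells (log2 fold change -0.71 ± 0.08). STE11, the gene of the kinase at the top of the cascade, gave 22.3, 23.0 and 22.6 CPM in H4-T30D cells, against 22.8, 24.0 and 24.8 CPM in H4-T30A cells (log2 fold change -0.08 ± 0.08, adjusted p = 0.499), and the groups overlapped. The receptor gene STE2 gave 635, 655 and 693 CPM in H4-T30D cells, against 774, 751 and 753 CPM in H4-T30A cells (log2 fold change -0.20 ± 0.10, adjusted p = 0.155) without overlap.

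Ste12 binds TGAAACA, which was present in 68.8% of the windows of the 16 lower pheromone genes and in 7.3% of all tested windows. As with the stress list, the genes were listed as known targets, and the share describes that choice. Of the 587 windows of all lower genes, 9.2% held TGAAACA. The windows of AGA2 (chrVII:436784-437083, - strand, element at -199) and PRM6 (chrXIII:181026-181325, - strand, element at -156) are shown because both genes fell past 2-fold, with the motif or its reverse complement in capitals. The windows of ASG7 and MFA1 held none.
AGA2: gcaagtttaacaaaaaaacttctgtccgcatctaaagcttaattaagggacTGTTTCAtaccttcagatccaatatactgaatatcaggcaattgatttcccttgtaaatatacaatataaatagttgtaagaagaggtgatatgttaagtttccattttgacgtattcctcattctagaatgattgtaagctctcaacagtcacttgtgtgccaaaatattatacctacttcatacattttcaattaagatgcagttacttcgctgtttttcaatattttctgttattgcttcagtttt
PRM6: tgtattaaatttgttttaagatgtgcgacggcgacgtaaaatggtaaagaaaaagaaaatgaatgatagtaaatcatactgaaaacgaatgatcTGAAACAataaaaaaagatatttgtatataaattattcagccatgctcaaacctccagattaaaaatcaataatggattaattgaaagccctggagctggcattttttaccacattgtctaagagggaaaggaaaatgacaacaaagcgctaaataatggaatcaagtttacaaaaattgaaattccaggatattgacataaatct

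MFA1, which encodes the a-factor pheromone, gave 67.6, 82.1 and 79.6 CPM in H4-T30D cells, against 127, 138 and 129 CPM in H4-T30A cells (log2 fold change -0.78 ± 0.18, adjusted p = 0.00256). HIS3, placed behind the MFA1 promoter in these strains, gave 183, 178 and 184 CPM in H4-T30D cells, against 305, 312 and 286 CPM in H4-T30A cells (log2 fold change -0.73 ± 0.10, adjusted p = 5.53e-06). The endogenous gene and the marker thus fell to a similar extent, and the H4-T30D libraries were below all others for both. MFA2, the other a-factor gene, gave 236, 262 and 249 CPM in H4-T30D cells, against 321, 386 and 307 CPM in H4-T30A cells (log2 fold change -0.44 ± 0.11). Of the 6 strain marker genes tested, MFA1 counted among them, 0 rose and 2 fell, against 12.9% and 9.5% of all tested genes. URA3, which marks the histone cassette, gave 123, 120.0 and 129 CPM in H4-T30D cells, against 112, 119 and 101 CPM in H4-T30A cells (log2 fold change 0.17 ± 0.08, adjusted p = 0.116).

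The markers of mating type were read as a check of the labelled MATa strain. Of 7 MATa genes 6 fell and 0 rose (summed level 1531 to 1642 CPM in H4-T30D, 1963 to 2046 CPM in H4-T30A). Of 8 genes expressed in haploids and silent in diploids, 6 fell, among them RME1 (-0.47 ± 0.08), a repressor gene of meiosis. Of 5 tested MATalpha genes, 3 rose: MF(ALPHA)1 gave 1.48, 2.14 and 1.55 CPM in H4-T30D cells, against 0.962, 0.583 and 0.613 CPM in H4-T30A cells, MF(ALPHA)2 gave 4.22, 4.43 and 3.83 CPM in H4-T30D cells, against 2.59, 2.17 and 2.76 CPM in H4-T30A cells and SAG1 gave 63.1, 52.9 and 60.2 CPM in H4-T30D cells, against 41.1, 44.7 and 43.7 CPM in H4-T30A cells. The list summed to 76.3 to 85.3 CPM in H4-T30D and 58.6 to 66.1 CPM in H4-T30A, with MATALPHA1 too low to be tested, and the a-specific genes stayed far more abundant in both mutants. The part of cells of another mating type or ploidy in the mating gene differences was not tested. Of 6 genes of diploid meiosis, 1 rose and 1 fell. Of 14 tested silencing factors and silent-locus genes, 0 rose and 1 fell. Beside all these counts, 12.9% of all tested genes rose and 9.5% fell.

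Iron uptake genes were higher in H4-T30D cells. In yeast the factor Aft1 turns on surface reductases, siderophore transporters and wall mannoproteins that hold siderophores when iron is short. Of 25 listed genes, 15 rose and 0 fell, where 12.9% of all tested genes rose and 9.5% fell. The median was 0.363, with none past 2-fold. FIT3, a siderophore-binding mannoprotein gene, gave 252, 253 and 249 CPM in H4-T30D cells, against 133, 135 and 123 CPM in H4-T30A cells (log2 fold change 0.95 ± 0.09, adjusted p = 5.89e-09). FRE2, a ferric reductase gene, gave 24.4, 23.5 and 21.5 CPM in H4-T30D cells, against 12.3, 11.7 and 14.1 CPM in H4-T30A cells (log2 fold change 0.87 ± 0.11). ARN2, a siderophore transporter gene, gave 118, 103 and 114 CPM in H4-T30D cells, against 61.4, 64.6 and 61.9 CPM in H4-T30A cells (log2 fold change 0.84 ± 0.08). The groups were separate for all 3, as for 792 of the 803 higher genes and 50.1% of all tested genes. The surface iron oxidase gene FET3 and its permease partner FTR1 were among the 10 listed genes that did not pass the test (0.17 and -0.07).

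The Aft1 motif TGCACCC stood in 46.7% of the windows of the 15 higher iron genes and in 1.3% of all tested windows. These genes too were listed as known targets of the factor, and the share describes that choice. Of the 744 windows of all higher genes, 2.6% held TGCACCC. FIT3 (chrXV:1061006-1061305, - strand) holds this motif at -184 and is shown as the iron gene with the largest change, with the motif or its reverse complement in capitals. The windows of FRE2 and ARN2 held none.
FIT3: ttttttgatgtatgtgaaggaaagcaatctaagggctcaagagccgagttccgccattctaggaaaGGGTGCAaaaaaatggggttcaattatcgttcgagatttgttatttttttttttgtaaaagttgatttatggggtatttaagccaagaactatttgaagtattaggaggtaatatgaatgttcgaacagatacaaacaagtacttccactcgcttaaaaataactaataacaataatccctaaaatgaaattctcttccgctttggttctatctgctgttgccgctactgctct

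Phosphate genes shared this direction, with 8 of 14 higher, 0 lower and a median of 0.404. Among all tested genes, 12.9% were higher and 9.5% lower. PHO89, which encodes a sodium-phosphate cotransporter, gave 3.43, 6.79 and 4.55 CPM in H4-T30D cells, against 1.74, 1.83 and 1.30 CPM in H4-T30A cells (log2 fold change 1.56 ± 0.24), and PHM8, a phosphatase gene, gave 3.06, 4.07 and 3.92 CPM in H4-T30D cells, against 1.14, 1 and 1.69 CPM in H4-T30A cells (log2 fold change 1.52 ± 0.22). Copper genes did not move together, with 2 of 11 higher and 3 lower. The vacuolar copper transporter gene CTR2 gave 48.6, 45.3 and 53.0 CPM in H4-T30D cells, against 79.7, 86.8 and 77.4 CPM in H4-T30A cells (log2 fold change -0.73 ± 0.08). CUP1-1, one of the tandem copies of the copper metallothionein gene, gave 23.5, 23.8 and 26.5 CPM in H4-T30D cells, against 34.8, 33.9 and 33.9 CPM in H4-T30A cells (log2 fold change -0.47 ± 0.14, adjusted p = 0.0182), with 69.5, 82.0 and 65.7 CPM in WT. RUF5-1, annotated on the opposite strand over the same copy, gave 3.38, 4.43 and 3.73 CPM in H4-T30D cells, against 1.86, 1.33 and 2.91 CPM in H4-T30A cells (log2 fold change 0.90 ± 0.23). CUP1-1 and RUF5-1 thus moved in opposite directions. The sources do not state whether strand was used in counting, and how reads were shared between these overlapping genes was not tested. CUP1-2, the other listed copy of the metallothionein gene, did not pass the test (-0.34, adjusted p = 0.106). Reads that mapped to both copies were not counted, so the level of each copy is uncertain.

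Genes of drug export and several genes that answer oxidants were higher as well. Of 20 multidrug transporters, 13 rose and 0 fell, with a median of 0.291, where 12.9% of all tested genes rose and 9.5% fell. AZR1, which encodes a transporter linked to azole resistance, gave 249, 229 and 236 CPM in H4-T30D cells, against 107, 107 and 99.1 CPM in H4-T30A cells (log2 fold change 1.19 ± 0.10, adjusted p = 7.88e-10), and 20.1, 17.4 and 26.4 CPM in WT, so that both mutants were above WT and H4-T30D was the highest. TPO4, a polyamine transporter gene, gave 49.3, 46.6 and 47.4 CPM in H4-T30D cells, against 25.3, 31.2 and 28.8 CPM in H4-T30A cells (log2 fold change 0.75 ± 0.09). Of 20 genes of the Yap1 type, which answer oxidants, 11 rose and 0 fell (median 0.300). AAD6, AAD15, AAD4, AAD3 and AAD10, near copies whose single levels are uncertain, were among those that rose. The others were SRX1 (0.71), AHP1 (0.63), OYE3 (0.49), TSA1 (0.33), OYE2 (0.30) and TRX2 (0.27). The 9 that did not pass included TRR1 (-0.18), GPX2 (-0.20), GSH1 (-0.12) and GLR1 (0.01), and 17 of the 20 differences were positive.

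Several genes that glucose represses were higher. Of 18 genes for gluconeogenesis and the use of acetate and fatty acids, 9 rose and 0 fell (median 0.363). Among all tested genes, 12.9% rose and 9.5% fell. FBP1, which encodes fructose-1,6-bisphosphatase, gave 4.49, 3.79 and 5.52 CPM in H4-T30D cells, against 1.80, 1.42 and 1.69 CPM in H4-T30A cells (log2 fold change 1.49 ± 0.20). Of 21 glycolysis and fermentation genes, 5 rose and 0 fell, with a median of -0.007. PDC6, a minor pyruvate decarboxylase gene, gave 28.2, 28.6 and 26.0 CPM in H4-T30D cells, against 9.98, 8.50 and 8.96 CPM in H4-T30A cells (log2 fold change 1.58 ± 0.10). ENO1, a major enolase gene, gave 3431, 3540.4 and 3297 CPM in H4-T30D cells, against 2691, 2893 and 2481 CPM in H4-T30A cells (log2 fold change 0.35 ± 0.12, adjusted p = 0.036). ADH1, the main alcohol dehydrogenase gene, gave 16121, 16447 and 15814 CPM in H4-T30D cells, against 13975, 15328 and 12777 CPM in H4-T30A cells (log2 fold change 0.20 ± 0.12, adjusted p = 0.218). ENO1 lost its call in 7 of the alternatives, where its adjusted p reached 0.14. Among hexose transporters and sensors 5 of 19 rose and 0 fell. HXT4, a transporter gene repressed at high glucose, gave 214, 203 and 215 CPM in H4-T30D cells, against 115, 109 and 114 CPM in H4-T30A cells (log2 fold change 0.90 ± 0.09).

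Amino acid synthesis genes did not move as one. Of 51 genes of the Gcn4 type, 7 rose and 14 fell, with a median of -0.089. Among all tested genes 12.9% rose, near the share of this list, and 9.5% fell. SER3 led those that rose. LEU1, which encodes isopropylmalate isomerase of leucine synthesis, gave 246, 257 and 228 CPM in H4-T30D cells, against 419.7, 423 and 396 CPM in H4-T30A cells (log2 fold change -0.76 ± 0.07), and BAT1, the mitochondrial branched-chain aminotransferase gene, gave 468, 480.3 and 458 CPM in H4-T30D cells, against 626, 687 and 610.1 CPM in H4-T30A cells (log2 fold change -0.45 ± 0.09). Among 22 sulfate and methionine genes, 5 rose and 2 fell, the latter a share near the 9.5% of all tested genes. MET6, the methionine synthase gene, gave 381, 397 and 364 CPM in H4-T30D cells, against 232, 239 and 220.1 CPM in H4-T30A cells (log2 fold change 0.72 ± 0.07), and SAM3, the S-adenosylmethionine permease gene, gave 82.7, 80.4 and 70.2 CPM in H4-T30D cells, against 141, 142 and 133 CPM in H4-T30A cells (log2 fold change -0.83 ± 0.12).

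Of 25 genes for thiamine, pyridoxine and NAD synthesis, 11 rose and 2 fell (median 0.294). THI5, a thiamine precursor synthase gene with near-identical copies elsewhere in the genome, gave 11.3, 9.72 and 9.11 CPM in H4-T30D cells, against 4.51, 5.66 and 4.60 CPM in H4-T30A cells (log2 fold change 1.04 ± 0.15). It lies 353 bases from AAD6 on the opposite strand. The other metabolic lists had called members in both directions, where 12.9% of all tested genes rose and 9.5% fell. Of 17 TCA cycle genes 4 rose and 2 fell (median 0.111), and of 37 respiratory chain genes 6 rose and 1 fell (median 0.024). Of 25 ergosterol genes 6 rose and 3 fell (median 0.091), and of 18 purine genes 1 rose and 3 fell (median -0.127). Of 34 proteasome genes 0 rose and 6 fell, with a median of -0.106. Of 21 mitochondrially encoded genes, 2 were tested, the 21S and 15S ribosomal RNAs, and 0 were called. The libraries were poly(A)-selected, and why these genes had few reads was not tested.

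Genes of DNA precursor supply and DNA damage were higher. Of 13 listed genes 9 rose and 0 fell, with a median of 0.461, where 12.9% of all tested genes rose and 9.5% fell. RNR1, which encodes the large subunit of ribonucleotide reductase and was listed with the cell cycle genes, gave 869.5, 808 and 827 CPM in H4-T30D cells, against 545, 576 and 551 CPM in H4-T30A cells (log2 fold change 0.58 ± 0.08, adjusted p = 2.02e-06). HUG1, whose small protein restrains that enzyme, gave 65.4, 68.2 and 67.0 CPM in H4-T30D cells, against 30.4, 29.7 and 28.7 CPM in H4-T30A cells (log2 fold change 1.18 ± 0.12). DDI2 gave 3.75, 3.79 and 3.29 CPM in H4-T30D cells, against 0.541, 0.833 and 1.07 CPM in H4-T30A cells (log2 fold change 2.17 ± 0.26) and DDI3 gave 2.43, 4.36 and 3.39 CPM in H4-T30D cells, against 0.902, 1.42 and 0.613 CPM in H4-T30A cells (log2 fold change 1.79 ± 0.27), and as these 2 genes are near-identical copies, reads that map to both were not counted. Groups were separate for all 4 genes, as for 792 of the 803 higher genes and 50.1% of all tested genes. WT gave 17.4, 26.9 and 25.6 CPM for HUG1.

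Among all tested genes, 12.9% rose and 9.5% fell. Among 26 cyclin and cell cycle genes, 1 rose and 5 fell (median -0.070, or 0.014 with library totals). RNR1 is the one that rose. Of 26 meiosis and sporulation genes 8 rose and 2 fell, and IME4, an mRNA methyltransferase gene, gave 2.43, 3.29 and 2.71 CPM in H4-T30D cells, against 0.962, 0.916 and 0.689 CPM in H4-T30A cells (log2 fold change 1.68 ± 0.28). An antisense transcript is annotated over IME4, and without the strand setting of the counts its reads cannot be told from those of the gene.

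Of 11 histone genes, 1 rose and 1 fell, shares near the 12.9% and 9.5% of all tested genes. HTA1 and HTA2, which both encode H2A, moved in opposite directions: HTA1 gave 1194, 1179 and 1203 CPM in H4-T30D cells, against 933, 969.6 and 919.8 CPM in H4-T30A cells (log2 fold change 0.34 ± 0.08), and HTA2 gave 385, 367 and 384 CPM in H4-T30D cells, against 473, 454 and 483 CPM in H4-T30A cells (log2 fold change -0.31 ± 0.07). Reads assigned to HHT1 and HHF1, the deleted pair of H3 and H4 genes, were 95.3, 103 and 88.3 CPM in H4-T30D cells, against 95.0, 119 and 88.8 CPM in H4-T30A cells for HHT1 and 25.3, 22.7 and 26.4 CPM in H4-T30D cells, against 28.4, 24.6 and 28.8 CPM in H4-T30A cells for HHF1. HHT2 gave 116, 120.2 and 132 CPM in H4-T30D cells, against 122, 124 and 117 CPM in H4-T30A cells, and HHF2, the H4 gene at the site of the cassette, gave 0.158, 1.36 and 0.339 CPM in H4-T30D cells, against 0.421, 0.333 and 0.996 CPM in H4-T30A cells. The groups overlapped for all 4 genes. The cassette genes are recoded, and which of their reads map to which native gene was not tested, so these values do not measure the level of H3 or H4 mRNA.

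Wall protein genes were higher in H4-T30D cells. Of 30 mannoprotein genes, 16 rose and 1 fell (median 0.320), where 12.9% of all tested genes rose and 9.5% fell. CWP1, which encodes an abundant wall mannoprotein, gave 504, 513 and 510.2 CPM in H4-T30D cells, against 266, 278 and 237 CPM in H4-T30A cells (log2 fold change 0.97 ± 0.09). DAN1, a gene of anaerobic wall remodelling, gave 3.22, 4.29 and 3.10 CPM in H4-T30D cells, against 2.28, 1.42 and 1.07 CPM in H4-T30A cells (log2 fold change 1.09 ± 0.26). Of 36 genes of the subtelomeric COS and PAU families, 15 rose and 1 fell, with the highest median of all lists, 0.528. PAU24 gave 8.81, 8.44 and 8.38 CPM in H4-T30D cells, against 4.87, 3.33 and 3.60 CPM in H4-T30A cells (log2 fold change 1.10 ± 0.18). These families consist of near copies, and their single members are uncertain.

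Genes near chromosome ends were higher in H4-T30D cells more often than genes further in. Within 10 kb of an end, 51 of 113 tested genes rose and 1 fell, with a median of 0.455. Between 10 and 20 kb the counts were 45 and 5 of 122 (median 0.283), between 20 and 40 kb 62 and 20 of 277, and further in 595 and 562 of 5324 (median -0.019). The medians of whole chromosomes lay between -0.030 and 0.025, with 25 of 126 genes higher on chromosome VI and 71 of 749 on chromosome IV, and differences between chromosomes were not tested. Genes near ends were often weakly expressed (112 within 20 kb were in the lowest quintile), so level and position were set side by side. In the lowest quintile of mean count 46 of 112 genes within 20 kb of an end rose (41.1%, median 0.669), against 151 of 781 further in (19.3%, median 0.197). In the other 4 quintiles 50 of 123 rose within 20 kb (40.7%), against 506 of 4820 further in (10.5%).

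**Figure D4:**
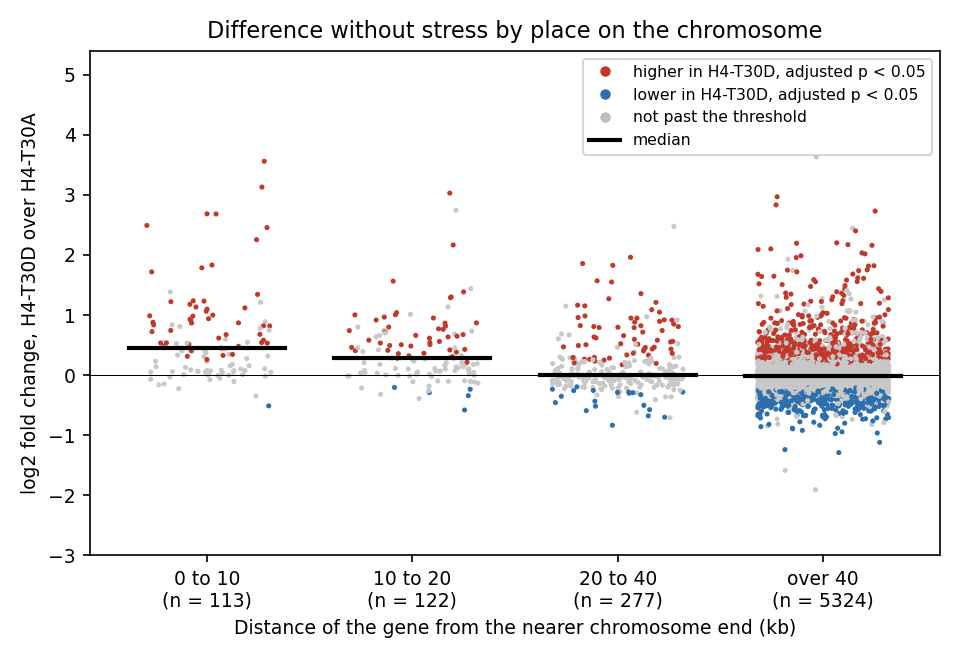
Log2 fold change of H4-T30D over H4-T30A without stress (y) by distance of the gene from the nearer chromosome end (x, 4 bins in kb), 1 point per tested gene with a position, called genes coloured, black bar at the median. The median is 0.455 in the 0 to 10 kb bin and -0.019 over 40 kb; 2 genes lie outside the y axis.

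WT libraries place the difference between the mutants. The comparisons of each mutant with WT share libraries with the one described here, so their values are given side by side and no overlap is tested. Between H4-T30D and WT 1958 genes differed (31.5%), 1009 higher (16.3%) and 949 lower (15.3%), and between H4-T30A and WT 86 differed (1.39%), 38 higher (0.612%) and 48 lower (0.773%). Of the 803 genes higher in H4-T30D than in H4-T30A, 584 were called higher in H4-T30D than in WT, with a median of 0.445, and 25 were called lower in H4-T30A than in WT, with a median of -0.054. Of the 590 lower genes, 452 were called lower in H4-T30D than in WT (median -0.368) and 8 higher in H4-T30A than in WT (median -0.002). Of the 138 genes of the ribosomal protein list, 132 were lower in H4-T30D than in WT, and the list's median in H4-T30A against WT was -0.101. Among the genes named above, H4-T30A differed from WT at an adjusted p under 0.05 for AZR1 (2.31), COS12 (1.37) and AMD2 (0.58), which were higher, and for SER3 (-0.80), YGP1 (-0.52), CWP1 (-0.53), ARN2 (-0.35), CUP1-1 (-1.08) and RUF5-1 (-1.29), which were lower.

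The same mutants were also sampled after 10 min at 39 ºC, in libraries that share no sample with those without stress. Under heat 459 genes (7.39%) differed between H4-T30D and H4-T30A, 270 higher (4.35%) and 189 lower (3.04%). Of the 803 genes higher without stress, 538 had a positive and 265 a negative difference under heat, 161 were called higher and 24 lower, and the median under heat was 0.113. Of the 590 lower genes, 387 were negative under heat, 52 were called lower and 10 higher. These genes were selected by their difference without stress, which by itself makes a second measurement smaller on average. The interaction term, which tests heat against no stress for the difference between the mutants, passed for 560 genes (9.02%), 325 below 0 (5.23%) and 235 above (3.78%).

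The general stress list had a median of 0.131 under heat, with 8 of 32 genes higher and 1 lower, against 4.35% of all tested genes higher and 3.04% lower. The ribosomal protein list had a median of -0.072 with 2 of 138 higher and 3 lower. DDR2 had a difference of 0.04 under heat (interaction -1.91, adjusted p = 1.64e-07), YGP1 0.37 (interaction -1.35, adjusted p = 6.17e-09), and HSP82 0.04 (interaction -0.82, adjusted p = 2.23e-06). The pheromone list had a median of -0.032 with 0 of 31 higher and 3 lower. The 7 MATa genes had a median of -0.302 with 0 higher and 3 lower, and the 8 haploid genes -0.226 with 0 higher and 1 lower. AGA2, a member of the first 2 of these lists, had 0.17 under heat (interaction 1.29, adjusted p = 1.55e-06). Other differences had the same sign under heat. SER3 had 2.40 (interaction -0.33, adjusted p = 0.0645), HUG1 1.18, AZR1 1.16, COS12 2.25 and TAL1 -0.82. RNR1 (1.30 under heat, interaction 0.71, adjusted p = 9.78e-05) and HXT4 (1.62, interaction 0.72, adjusted p = 0.000298) differed more under heat.

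**Figure D5:**
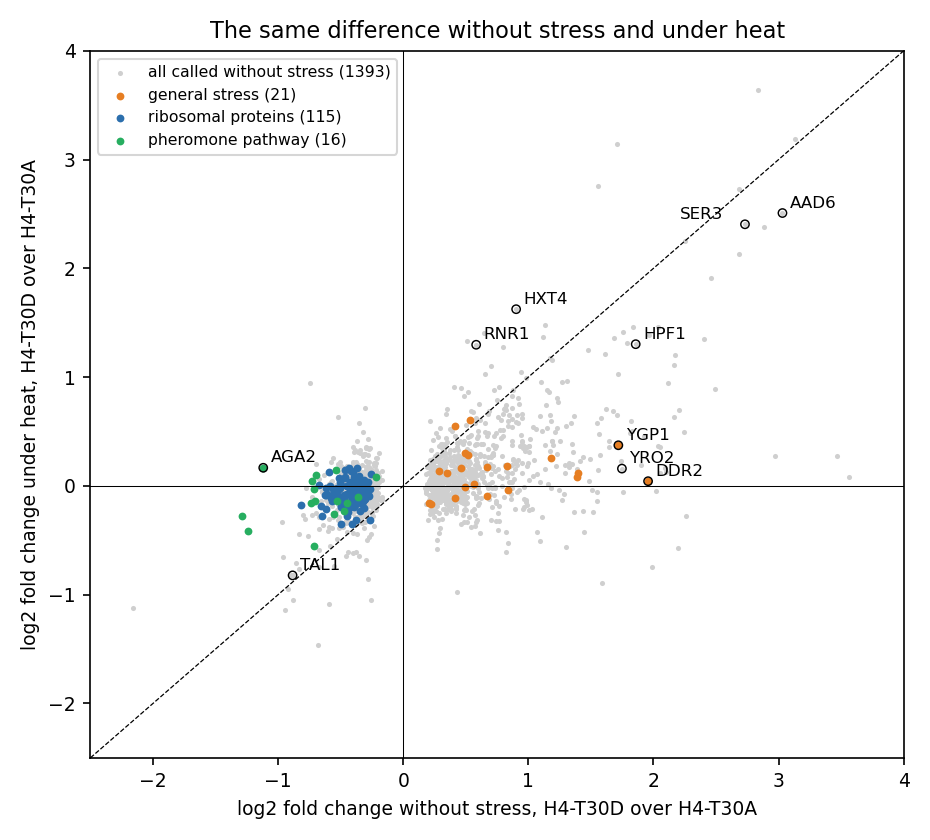
Log2 fold change of H4-T30D over H4-T30A under heat (y) against the same without stress (x) for the 1393 genes called without stress, with called members of 3 lists coloured, 10 genes named and the line of equal values dashed. DDR2 and YGP1 lie well below the line of equal values, while SER3 and TAL1 lie near it. Outside the axes lie 2 genes.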

How the data were processed

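Whole-cell RNA was extracted with hot phenol, poly(A)-selected, made into stranded libraries and read as 50 bp single ends; the study states 3 biological replicates per group. The authors aligned reads with TopHat2 2.1.0 and deposited raw read counts per gene, made with featureCounts 1.5.1 from uniquely mapping reads on the R64 annotation, and tested them with DESeq2 1.14.1. Whether counting used strand is not given in the sources used here, so overlapping genes are uncertain.

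Counts of all 27 libraries were fitted in R 4.3.3 with edgeR 4.0.16 (quasi-likelihood test, limma 3.58.1), 1 mean per group, TMM factors, no replicate block. Genes passed a minimum count filter of 10, which left 6209 of 6746. P-values were adjusted by Benjamini-Hochberg over all tested genes, and 0.05 was the threshold. The steps were tested on simulated data. Totals of 12806359 to 19503694 counts set the precision in the 6 libraries.

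Named genes were the 10 largest called changes in each direction without overlap and with a mean count of at least 10, genes the study probes, up to 3 called members of each gene list in each direction, from which examples are given, and strain markers; others are said to be chosen after their values were seen. The members and gene lists were chosen with earlier results of these data known. Positions and promoter windows came from the RefSeq R64 assembly. Alternatives were other scalings, filters, a replicate block, fewer libraries, DESeq2 1.42.0 and each library left out. The first principal component and distances from chromosome ends were computed from the same table.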

Additional observations from a re-analysis of the deposited data

Results flagged for a closer look

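For 560 genes the difference between H4-T30D and H4-T30A under heat was unlike that without stress, by the interaction term of the edgeR fit at an adjusted p under 0.05. Values are the log2 difference under heat minus that without stress, for genes named in the report. The value was below 0, so that H4-T30D stood lower against H4-T30A under heat than without stress, for the stress and chaperone genes DDR2 (-1.91), YGP1 (-1.35), HSP12 (-1.31), HSP26 (-1.28), HSP42 (-0.88), HSP82 (-0.82), SSA4 (-0.70), HSP104 (-0.50) and HXT5 (-0.44). It was below 0 for the metabolic and transport genes PHM8 (-1.76), FBP1 (-1.25), AAD4 (-1.17), PHO89 (-1.08), TPO4 (-1.01), PDC6 (-0.96), MET6 (-0.81), FRE2 (-0.68), AAD6 (-0.52) and YFL057C (-0.50). The same held for the wall and membrane genes VBA5 (-1.61), YRO2 (-1.59), DAN1 (-1.06), CWP1 (-0.60), CSS1 (-0.57) and HPF1 (-0.56), and for YPR092W (-3.20).

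The value was above 0 for the mating and marker genes AGA2 (1.29), ASG7 (0.83) and HIS3 (0.63), and for the ribosomal protein genes RPS20 (0.68) and RPS30A (0.64). It was also above 0 for HXT4 (0.72), RNR1 (0.71), BAT1 (0.64), CUP1-1 (0.63), HSP10 (0.57), CTR2 (0.46) and LEU1 (0.30). Most of these genes were named for their difference without stress, and that choice alone moves the interaction away from the sign of the difference.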

How the results depend on the processing

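With library totals alone, 273 genes were lower in H4-T30D than in H4-T30A, 98 and 619 had an interaction above and below 0, 2088 and 256 were higher and lower in H4-T30D than in WT, and for H4-T30A against WT the calls were 107 upward and 25 downward. The 6 libraries alone gave 1321 higher and 1240 lower genes, and with a replicate block 1371 and 1321. DESeq2 on the 6 libraries gave 1055 lower genes. When the test itself asked for more than 2-fold, 26 genes were higher and 1 lower. Leaving out each library in turn gave 589 to 666 higher and 366 to 482 lower genes, and 117 to 127 and 5 to 7 past 2-fold. The causes were not tested. Replicate numbers did not pair the libraries (correlations of deviations 0.001, 0.028 and 0.096), and the replicate block over all 27 libraries gave 782 and 579 calls.

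Differences near 0 changed sign: HXT5 (-0.009 to 0.130 as libraries were left out), STE11 (0.007) and HHT1 (0.008) with library totals, HHT1 again as libraries were left out (-0.168 to 0.053), and HHT2 with RLE factors and with DESeq2 on 27 libraries (-0.010 in both) and as libraries were left out (-0.031 to 0.060, with -0.004 without H4-T30A replicate 3). List medians became positive with library totals for chaperones (0.016), histones (0.008), silencing (0.016), copper (0.024), glycolysis (0.079) and cyclins (0.014), and for strain markers without H4-T30D replicate 2 (0.028). The respiratory chain median was -0.006 with RLE factors. Over the named genes, 1536 values kept their direction and side of the threshold, 23 gained and 14 lost a call. Genes with few reads limit what could be detected, and 537 were not tested.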
